A study of Mus musculus with 2 samples.

Results

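Transitional alveolar epithelial cells of the bleomycin-injured mouse lung were taken as cells with the keratins and junction genes that alveolar cells gain on leaving the type II state. A barcode was a member when it had at least 500 genes, at most 15% mitochondrial unique molecular identifiers (UMIs, the count of captured RNA molecules), at most 3 UMIs of Col1a1, Col1a2 and Col3a1 together and at least 1 UMI of Epcam. Members were thus chosen by the measured UMIs themselves: per 10000 UMIs a barcode also needed at least 5 of Cldn4, Krt19, Sfn and Sprr1a together, under 10 of the type I genes Rtkn2, Akap5, Clic5, Spock2 and Col4a3, under 5 of the ciliated genes Tmem212, Ccdc153 and Dynlrb2, under 5 of the club cell gene Cyp2f2, and under 5 of the mesothelial genes Msln, Upk3b and Lrrn4. This gave 191 members, 85 in the navitoclax library and 106 in the vehicle library, of 6106 epithelial cells and 16848 barcodes in all.

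Both groups were C57Bl6 mice injured with bleomycin on day 1, with lungs taken 21 days after injury. The navitoclax group received navitoclax (ABT-263), which blocks BCL-2, BCL-XL and BCL-W, proteins that hold back apoptosis, from day 15 to day 20, and the vehicle group received vehicle. Sorted epithelial and stromal cells were mixed 1:1 before capture with a Chromium 3′ kit, so that only shares within the epithelium can be read. Each group was 1 library. The number and age of the mice behind it were not found in the sources used, and no lung without bleomycin was analysed. With a single library in each group the treatments could not be tested against each other: intervals are 95% intervals that cover counting error only, not differences between mice or preparations, and every fold is a description of these libraries.

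The alveolus is lined by flat type I (AT1) cells, across which gas is exchanged, and by cuboidal type II (AT2) cells, which make surfactant and serve as progenitors of AT1 cells. After injury AT2 cells pass through a spread, keratin-rich state marked by Krt8 before they become AT1 cells, and in mice given bleomycin such cells are known to accumulate and to show p53, TGFβ and stress responses. Krt8, Krt18, Krt19 and Krt7 are keratins of simple epithelia, Cldn4 is a tight junction claudin that seals the epithelium after injury, Sfn is 14-3-3σ, a p53 target that halts the cell cycle, and Sprr1a is a cornified-envelope precursor induced by stress.

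Members carried 1669483 UMIs in the navitoclax library and 1865181 UMIs in the vehicle library. The median member had 18065 UMIs in navitoclax and 15790.5 UMIs in vehicle, against 19890 and 18223.5 UMIs in AT2 comparison cells of the same 2 libraries, and its mitochondrial share was 4.28% in navitoclax and 4.33% in vehicle. AT2 comparison cells (2236 navitoclax, 2392 vehicle) met every other criterion but had under 5 marker UMIs per 10000 and at least 10 Sftpc UMIs per 10000. AT1 comparison cells (36 navitoclax, 100 vehicle) had at least 10 of the 5 AT1 genes per 10000 with the other exclusions kept. No limit was set on their marker sum, so they are not a comparison without the marker genes. Scrublet called 217 of 6445 navitoclax cells and 222 of 7396 vehicle cells doublets, and 0 of them were members. The libraries shared 20 barcodes, of which 1 was a member in navitoclax and 1 was a member in vehicle.

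Krt8, which the rule did not use, was high in most members. Its level per cell ran from 0 through a median of 9.42 to 45.5 UMIs per 10000 in navitoclax members and from 0 through 7.91 to 27.1 in vehicle members, and 82 of 85 navitoclax members and 103 of 106 vehicle members had at least 1 Krt8 UMI. Summed over cells, Krt8 stood at 1240.5 CPM (UMIs of a gene per 1000000 UMIs of the same cells) in navitoclax members and 936 CPM in vehicle members, against 192 and 177 CPM in AT2 comparison cells. Ciliated comparison cells (epithelial cells with at least 5 UMIs of the 3 ciliated genes per 10000), which hold simple keratins of their own, had 930.3 and 949.7 CPM. Krt8 thus set members apart from AT2 cells and not from ciliated cells.

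The 4 rule genes reached the threshold in different mixtures. Sprr1a gave 46.3% of the marker UMIs in navitoclax members and 34.7% in vehicle members, Sfn gave 26.1% and 41.1%, Krt19 gave 23.7% and 22.5%, and Cldn4 gave 3.85% and 1.69%. Sprr1a was concentrated in a subset, with a UMI in 40 of 85 navitoclax members and 43 of 106 vehicle members and a highest cell at 164 and 198 UMIs per 10000. Without Sfn in the sum, 47 navitoclax cells and 46 vehicle cells would have been members, and without Krt19, 52 and 69. Cells close to the limit were common: 29 navitoclax cells and 18 vehicle cells had a marker sum of 4 to under 5 per 10000, with Krt8 at 539 and 682 CPM, and 10 navitoclax members and 20 vehicle members had 5 to under 6 per 10000, with Krt8 at 780.1 and 603 CPM. Krt8 in vehicle was thus no higher just inside the limit than just outside it.

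Marker lists of other cell types were read in members. Of 12 immune markers, Cd3e, S100a8, Marco, Tyrobp and Laptm5 had no UMI in members of either library, which allows up to 3 UMIs of each library's total, and Ptprc had 1 UMI in navitoclax and 0 in vehicle. The 12 summed to 5180.1 CPM in navitoclax and 5418 CPM in vehicle, against 6139 and 5476 CPM in AT2 comparison cells, nearly all of it from Lyz1 and Cd74, which AT2 cells also make. Cd79a, of B cells, had 19 and 0 UMIs. The basal cell genes Krt5, Trp63, Krt14 and Krt17 had no UMI in members of either library, and the whole basal list summed to 1.20 CPM in navitoclax and 1.07 CPM in vehicle. Fibroblast markers summed to 59.9 CPM in navitoclax and 60.6 CPM in vehicle, against 62.4 and 61.3 CPM in AT2 comparison cells. Club and secretory markers, led by Scgb1a1, summed to 1309 CPM in navitoclax and 922 CPM in vehicle, below the 2736 and 1719 CPM of AT2 comparison cells. Ciliated markers summed to 181 CPM in navitoclax and 113 CPM in vehicle, above the 86.8 and 72.3 CPM of AT2 comparison cells. Most of this was Tppp3, at 148.5 and 83.1 CPM, which AT1 comparison cells held at 377 and 518 CPM. Goblet, tuft and neuroendocrine markers summed to 101.8 and 52.5 CPM, above 36.5 and 22.1 CPM. Of these sums Dclk1 gave 49.7 CPM in navitoclax and 52.0 CPM in vehicle. Calca gave 40.7 CPM in navitoclax, all from 1 cell, and 0 in vehicle. The rule capped Col1a1, Col1a2 and Col3a1 of the fibroblast list, Cyp2f2 of the club list and Tmem212, Ccdc153 and Dynlrb2 of the ciliated list. Both members and AT2 comparison cells passed these caps, so the low sums of these lists follow in part from the choice. The part of these markers in the results was not tested.

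A few navitoclax members held most of the UMIs of a gene, and some of these went against the label. Of the genes with at least 100 UMIs in members of both libraries together, 5 had over 50% of them in 1 cell, and each of those cells was from navitoclax. The cell with all 177 UMIs of Resp18 also held all 68 UMIs of Calca, a neuroendocrine marker. A second cell held all 589 UMIs of Crct1 and 180 of 181 UMIs of Xirp2, and had 95 of the 140 navitoclax Cldn4 UMIs. Its marker sum of 62.4 and its Krt8 level of 28.3 UMIs per 10000 fitted the label. A further cell held all 682 UMIs of Jchain, an immunoglobulin joining chain, with Krt8 at 0, as in some vehicle members. The last cell held 98 of 121 UMIs of the chemokine gene Cxcl1, with Krt8 at 6.87 UMIs per 10000. All 4 had Sftpc at 12.5 to 23.8 UMIs per 10000, as low as in ciliated cells. Values that rest on these cells are given without them below.

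**Figure D1:**
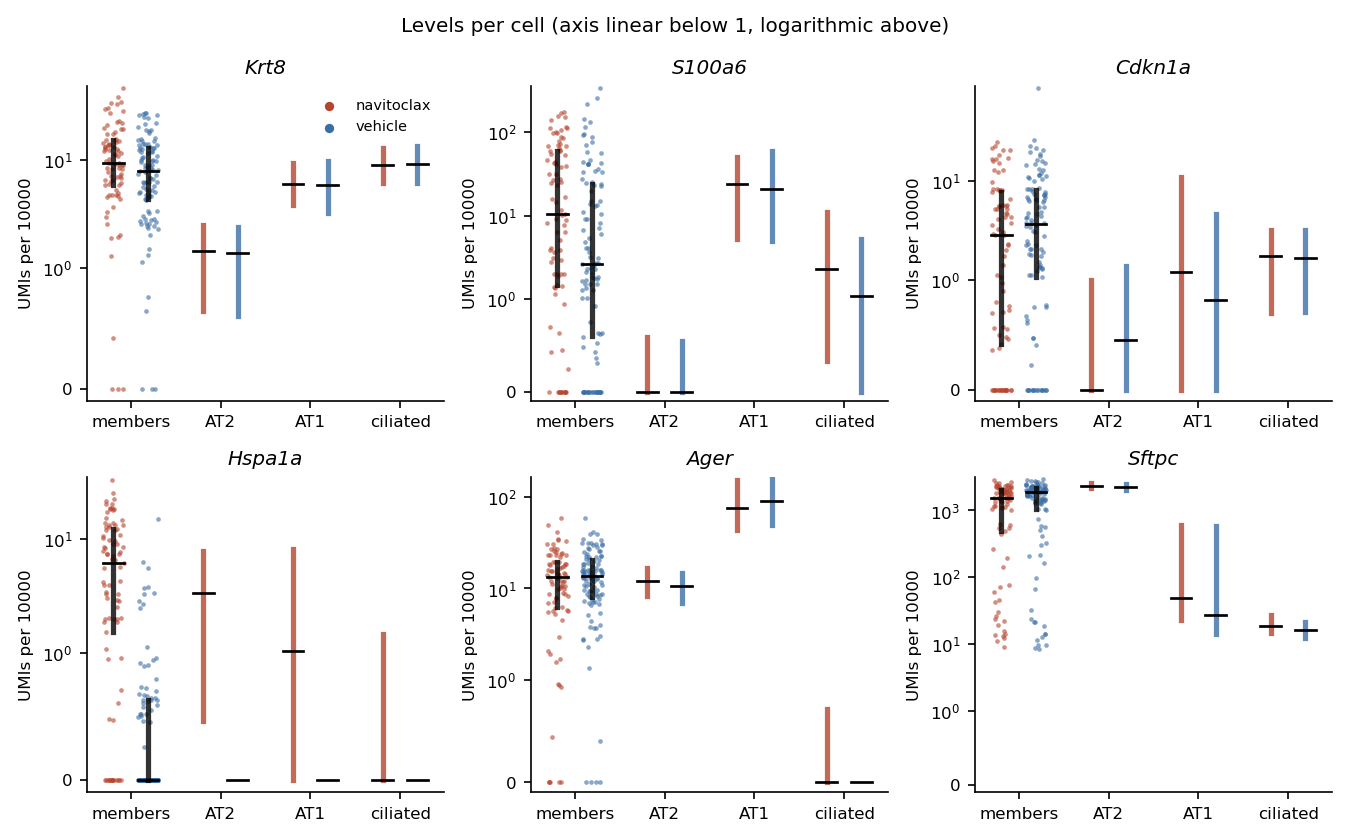
Each point is 1 member cell, with its level of a gene in UMIs per 10000 on an axis that is linear below 1 and logarithmic above. Thick bars span the quartiles and short lines mark the medians in members, AT2, AT1 and ciliated cells, navitoclax (red) left of vehicle (blue). Krt8 is high in most members, S100a6 and Cdkn1a spread over the whole range, Hspa1a is higher in navitoclax members, and a group of members lies at Sftpc levels under 100.

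Members made up 2.89% of epithelial cells in navitoclax (85 of 2941, 2.31% to 3.56%) and 3.35% in vehicle (106 of 3165, 2.75% to 4.04%). The difference was -0.46 percentage points with an interval of -1.34 to 0.42, so that neither a higher nor a lower share in navitoclax was detectable at these cell numbers. Among alveolar cells alone (members, AT2 and AT1 comparison cells) the shares were 3.61% in navitoclax and 4.08% in vehicle. By tiers of the marker sum, 41, 24 and 20 navitoclax members and 53, 30 and 23 vehicle members had 5 to under 10, 10 to under 20 and at least 20 UMIs per 10000, so that the spread of the marker sum was alike in the 2 libraries.

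Set against AT2 cells of the same library, members had higher levels of S100a6, Lgals3, Anxa1, Krt8 and Krt18 and of 9 of 18 laminin, integrin and adhesion genes, and lower levels of 8 of 20 AT2 identity genes. A gene was counted here when it was at least 2-fold higher, or at least 2-fold lower, in both libraries. Of 11063 genes with at least 100 UMIs, 501 (4.53%) were higher in members and 263 (2.38%) were lower. Members were chosen for 4 genes of the same cells, so these contrasts describe the cells and carry no test. The median gene with at least 20 UMIs was 0.27 higher in navitoclax members and 0.15 higher in vehicle members on a log2 scale with 5 CPM added to both levels, and this offset is contained in every fold over AT2 cells.

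S100a6, a small calcium-binding protein, led by level. It reached 3362 CPM in navitoclax members, against 136 CPM in AT2 cells (24.7-fold), and 2382 CPM in vehicle members, against 76.3 CPM in AT2 cells (31.2-fold). The level varied widely from cell to cell, from 0 through a median of 10.4 to 176 UMIs per 10000 in navitoclax and from 0 through 2.63 to 339.7 in vehicle. AT1 comparison cells had higher medians, 23.9 UMIs per 10000 in navitoclax and 20.9 in vehicle. Lgals3, the glycan-binding lectin galectin-3, was 14-fold higher in navitoclax members and 10.1-fold higher in vehicle members, at 2030.0 and 1139 CPM. Anxa1, a phospholipid-binding annexin with anti-inflammatory actions, had 1109 CPM in navitoclax members and 795 CPM in vehicle members, a ratio to AT2 cells of 12.5 and 12.4. The ratios of these 3 abundant genes were of similar size in the 2 libraries.

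Several genes nearly silent in AT2 cells also had high ratios. Emp1, an epithelial membrane protein, stood at 180.3 CPM in navitoclax members, against 6.56 CPM in AT2 cells, and at 55.2 CPM in vehicle members, against 2.36 CPM, ratios of 27.5 and 23.4. Plaur, the receptor that holds the protease urokinase at the cell surface, had 88 UMIs in navitoclax members and 26 in vehicle members (52.7 and 13.9 CPM), against only 15 and 2 UMIs in all AT2 comparison cells, so that its ratios of 166 and 313 rest on few AT2 molecules. F3, tissue factor, which starts coagulation, was 17.2-fold higher in navitoclax members and 10.8-fold higher in vehicle members. Edn1, the vasoconstrictor peptide endothelin-1, was 27.7-fold and 13.96-fold higher, though 55 of its 150 navitoclax UMIs came from 1 cell. Krtap17-1, a keratin-associated protein, S100a14, Gsto1, Ahnak2 and Tnfrsf12a, the receptor for the cytokine TWEAK, completed the 12 genes with the highest ratios, between 8.87 and 19.03. In vehicle, 54 of the 86 Gsto1 UMIs were in 1 cell.

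**Figure D2:**
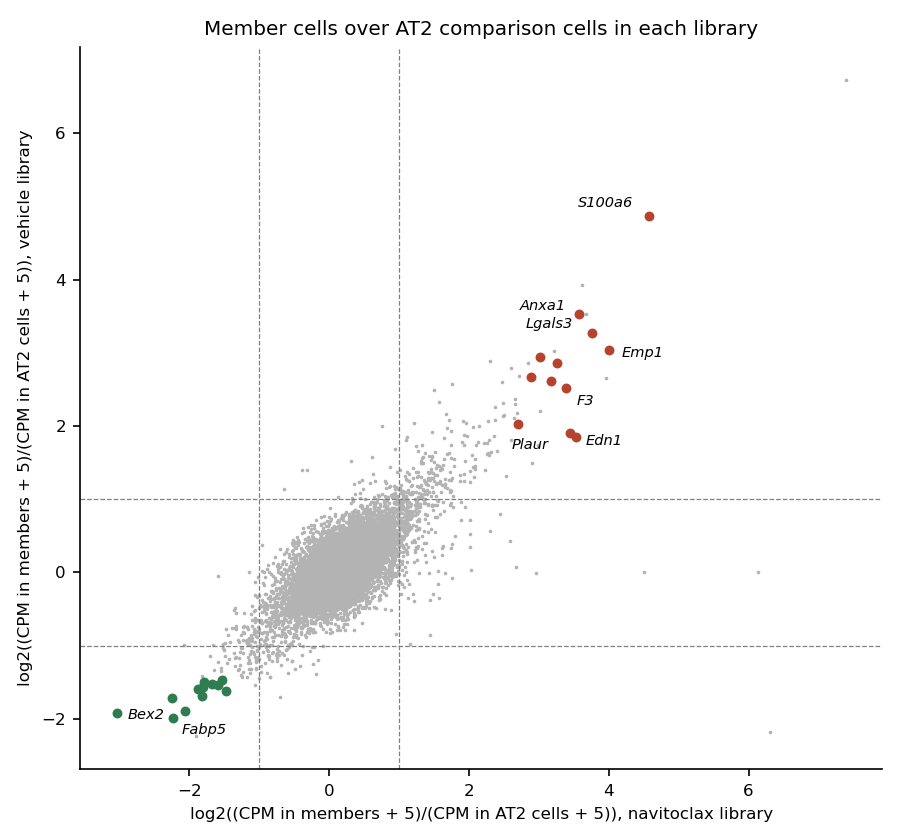
Each point is a gene with its log2 ratio of members over AT2 comparison cells (5 CPM added to both) in the navitoclax library on the horizontal axis and in the vehicle library on the vertical axis. Red points are the 12 genes highest and green points the 12 lowest by the less extreme of the 2 libraries, and dashed lines mark 2-fold. S100a6, Anxa1, Lgals3 and Emp1 lie far along the diagonal, and Bex2 and Fabp5 lie furthest the other way. The rule genes are among the grey points.

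The list of keratins and other transitional-state genes outside the rule was high almost throughout: 20 of its 23 counted genes were at least 2-fold higher in both libraries and 0 were lower, against 4.53% of all genes. Krt18 stood at 1367 CPM in navitoclax members, against 238 CPM in AT2 cells, and at 1114 CPM in vehicle members, against 247 CPM. Krt7 was 6.67-fold higher in navitoclax members and 5.23-fold in vehicle members. Tnip3, an inhibitor of NF-κB signalling, had 49.7 CPM in navitoclax members and 43.4 CPM in vehicle members, with 2.65 and 1.65 CPM in AT2 cells. Clu, the secreted chaperone clusterin, was 3.32-fold higher in navitoclax and 4.30-fold higher in vehicle. Dmkn, a secreted epidermal protein on the same list, was lower than in AT2 cells, at 31.1 and 6.43 CPM in members, against 45.6 and 23.6 CPM in AT2 cells.

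Matrix adhesion and YAP target genes were also high in members. The counts that follow stand beside 4.53% of all counted genes at least 2-fold higher in both libraries and 2.38% lower. Of 18 counted genes of the laminin, integrin and adhesion list, 9 were at least 2-fold higher in both libraries, among them Lama3, which encodes a laminin chain of the basement membrane (3.95-fold in navitoclax, 2.89-fold in vehicle). Itgb6, the β6 chain of the integrin that frees TGFβ from its latent form, stood at 52.7 CPM in navitoclax members and 38.1 CPM in vehicle members, 5.22-fold and 4.82-fold over AT2 cells, and its partner Itgav was 2.84-fold and 2.33-fold over them. Of 12 counted YAP targets, genes switched on when cells stretch and spread, 7 were higher in both libraries, with Cyr61 at 219.8 and 95.97 CPM, against 40.1 and 27.4 CPM in AT2 cells, and Ctgf at 7.12 and 7.13 times the AT2 level. Thbs1, thrombospondin-1, another activator of latent TGFβ, was 6.39-fold higher in navitoclax members and 7.51-fold in vehicle members, and 5 of 20 counted genes of the TGFβ list were higher in both.

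Of 21 counted p53 targets, 8 were at least 2-fold higher in both libraries and 0 were lower, against 4.53% and 2.38% of all counted genes. Cdkn1a, the cell cycle inhibitor p21, had 470.2 CPM in navitoclax members, against 103 CPM in AT2 cells, and 581 CPM in vehicle members, against 141 CPM, ratios of 4.59 and 4.13. Phlda3, an inhibitor of AKT signalling, stood 5.56-fold and 4.67-fold over AT2 cells. Bax, the pore-forming protein of apoptosis, was 2.94-fold higher in navitoclax members and 2.54-fold in vehicle members, while Mdm2, the ubiquitin ligase that degrades p53, at 1.82-fold and 1.49-fold, did not reach 2-fold. The secreted stress hormone Gdf15 was 5.27-fold and 4.35-fold higher, in few cells: 28 navitoclax members and 40 vehicle members had a UMI of it. Of 12 counted genes of the senescence list, 5 were higher in both, including the CDK inhibitor Cdkn2b at 23.96 and 15.5 CPM in members, against 7.47 and 6.54 CPM in AT2 cells.

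The 3 branches of the unfolded protein response differed in how many of their genes were higher in members. Among all counted genes 4.53% were at least 2-fold higher in both libraries and 2.38% were lower. Of 19 counted targets of the kinase PERK and its factors ATF4 and CHOP, 6 were at least 2-fold higher in both libraries and 1, the lipoprotein receptor Vldlr, was lower. The 6 were Ddit3, which encodes CHOP (2.92-fold in navitoclax, 2.13-fold in vehicle), the translation repressor Eif4ebp1, and 4 genes of amino acid and one-carbon metabolism, Asns (3.06 and 3.71), Psat1 (3.09 and 5.33), Phgdh (6.11 and 4.50) and Mthfd2 (6.33 and 6.41), and each of the 4 had at most 42 UMIs in members of a library. Of 14 counted ER chaperones of the ATF6 list and 18 counted IRE1 and XBP1 targets, 0 were past 2-fold in either direction in both libraries. Xbp1 had 104 CPM in navitoclax members, against 109.9 CPM in AT2 cells, and 97.6 CPM in vehicle members, against 121 CPM.

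AT2 identity genes were lower in members than in AT2 cells, though still expressed. Of 20 counted AT2 identity genes, 8 were at least 2-fold lower in both libraries, against 2.38% of all genes, and 0 were higher. Abca3, the lipid pump of the surfactant-storing lamellar body, had 286 CPM in navitoclax members, against 819 CPM in AT2 cells, and 296 CPM in vehicle members, against 841 CPM (2.87-fold and 2.84-fold lower). Slc34a2, the phosphate transporter of AT2 cells, was 2.76-fold lower in navitoclax members and 2.36-fold in vehicle members, and lysozyme, Lyz2, 3.14-fold and 2.53-fold. Sftpc, the surfactant protein C gene, fell short of 2-fold at 1.65-fold and 1.38-fold lower, and the lung epithelial factor Nkx2-1 was near the AT2 level at ratios of 0.873 and 0.868. Among the 12 lowest genes overall were Fabp5, a fatty acid binding protein (4.78-fold lower in navitoclax members, 4.004-fold in vehicle), Acoxl (4.50 and 3.96), the very-long-chain fatty acid elongase Elovl1 (3.73 and 3.05), the sterol acyltransferase Soat1 (3.61 and 2.89) and the desaturase Fads1 (3.37 and 3.18). The rest of the 12 were Lrg1, Hdc, Nrn1, Rab27a, Bex2, Trf and Fam126b. MHC class II genes, which AT2 cells express, had 0 of 7 past 2-fold.

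Against AT1 cells the members had lower levels of mature AT1 genes. Over AT2 cells, 7 of 20 counted AT1 identity genes were at least 2-fold higher in both libraries, Hopx, Pdpn, Cav1, Cav2, Sema3e, Krt7 and Tspan8, and 0 were lower. Of all genes counted over AT2 cells, 4.53% were higher and 2.38% lower. Over AT1 cells, 98 of 4205 genes with at least 100 UMIs (2.33%) were at least 2-fold higher in members in both libraries and 257 (6.11%) were lower. The rule capped 5 AT1 genes in members and the comparison cells were chosen for the same 5, so lower values of AT1 genes follow from the choice in part. AT1 cells also held the rule genes, with Krt19 at 563 CPM in navitoclax and 479 CPM in vehicle. Sprr1a stood at 344 and 243 CPM in them, Sfn at 206 and 374 CPM and Cldn4 at 32.5 and 25.1 CPM. Hopx, a homeodomain protein of AT1 cells, was at 180.3 CPM in navitoclax members, against 2843 CPM in AT1 cells, and 127 CPM in vehicle members, against 4105 CPM, yet 3.53-fold and 2.76-fold over AT2 cells. Pdpn and the caveolin Cav1 likewise lay between the 2 cell types. Ager, the receptor for glycation end products, had 1465 CPM in navitoclax members and 1472 CPM in vehicle members, close to the 1285 and 1129 CPM of AT2 cells and 5.70-fold and 6.56-fold under AT1 cells. Krt8, Krt19, Anxa1 and Bax were within 2-fold of AT1 cells in both libraries, so these genes did not set members apart from AT1 cells. Nor did high S100a6, with a median of 23.9 UMIs per 10000 in navitoclax and 20.9 in vehicle AT1 cells, against 10.4 and 2.63 in members. An Itgb6 UMI was found in 61.1% and 65.0% of AT1 cells, against 43.5% and 33.0% of members. Emp1 and Thbs1 went the other way, with a UMI in a larger share of members than of AT1 cells in both libraries. Areg, an EGFR ligand, was higher in members than in either cell type: 522 CPM in navitoclax and 417 CPM in vehicle, against 188 and 70.6 CPM in AT1 cells and 102 and 51.7 CPM in AT2 cells. Tnip3 was 11.5-fold and 3.82-fold over AT1 cells, on 2 and 14 AT1 UMIs. The AT1 comparison has 36 navitoclax cells, which limits its precision.

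The promoters of 5 leading genes are shown for a short motif that they hold. RefSeq promoter windows (GRCm38.p6, 250 bases before to 50 after the start of the gene, 32851 windows) were searched on both strands for TGANTCA, the palindromic motif to which AP-1 factors bind. A window was found for 14 of the 16 genes made up of the 12 highest over AT2 cells and the 4 rule genes, and 5 of the 14 held the motif, against 7.81% of all windows. Sprr1a and Cldn4 are rule genes, and without the rule genes 3 of 11 windows held it. The 5 shown were picked for the match. It stood in 53 of 374 promoters (14.2%) of the genes at least 2-fold higher in both libraries, in 8 of 188 (4.26%) of those lower, and in 497 of 8503 (5.85%) of all counted genes. A match says only that the letters are in the window, and these shares are descriptions with no test. The 5 windows follow, 5′ to 3′ on the strand of the gene, with the motif in capitals.
Sprr1a, chr3:92485832-92486131, minus strand: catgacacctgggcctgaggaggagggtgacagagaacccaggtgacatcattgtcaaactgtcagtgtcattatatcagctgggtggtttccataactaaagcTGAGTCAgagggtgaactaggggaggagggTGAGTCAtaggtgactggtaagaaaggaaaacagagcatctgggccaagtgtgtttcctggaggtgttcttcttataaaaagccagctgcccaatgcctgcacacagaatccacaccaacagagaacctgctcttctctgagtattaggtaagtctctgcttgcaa
Cldn4, chr5:134946885-134947184, minus strand: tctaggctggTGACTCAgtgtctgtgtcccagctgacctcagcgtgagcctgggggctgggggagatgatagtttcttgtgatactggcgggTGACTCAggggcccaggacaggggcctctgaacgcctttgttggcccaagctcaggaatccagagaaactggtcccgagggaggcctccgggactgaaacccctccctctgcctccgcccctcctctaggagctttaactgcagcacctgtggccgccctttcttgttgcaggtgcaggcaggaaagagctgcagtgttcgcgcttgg
Emp1, chr6:135362681-135362980, plus strand, 1 of its 2 windows: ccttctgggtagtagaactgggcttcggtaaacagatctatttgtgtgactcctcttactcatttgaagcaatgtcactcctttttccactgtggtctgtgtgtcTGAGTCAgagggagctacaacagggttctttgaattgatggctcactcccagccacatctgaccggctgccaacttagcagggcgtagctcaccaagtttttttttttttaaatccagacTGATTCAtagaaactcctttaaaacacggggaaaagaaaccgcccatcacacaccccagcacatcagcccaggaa
F3, chr3:121723287-121723586, plus strand: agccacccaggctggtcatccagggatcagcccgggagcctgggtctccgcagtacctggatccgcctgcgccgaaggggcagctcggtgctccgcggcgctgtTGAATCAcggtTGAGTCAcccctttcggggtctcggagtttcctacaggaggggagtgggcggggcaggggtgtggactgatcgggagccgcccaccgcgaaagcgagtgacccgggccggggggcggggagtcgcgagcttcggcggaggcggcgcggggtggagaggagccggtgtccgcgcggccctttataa
Plaur, chr7:24462233-24462532, plus strand: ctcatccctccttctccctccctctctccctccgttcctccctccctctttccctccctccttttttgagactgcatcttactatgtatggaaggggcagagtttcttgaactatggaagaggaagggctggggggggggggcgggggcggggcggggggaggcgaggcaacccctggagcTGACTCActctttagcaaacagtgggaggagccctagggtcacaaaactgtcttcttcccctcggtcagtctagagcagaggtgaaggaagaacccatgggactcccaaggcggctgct
The motif occurred 2 times each in Sprr1a (146 and 116 bases before the start), Cldn4 (240 and 158), Emp1 (145 and 25) and F3 (146 and 135), and 1 time in Plaur (69). No match lay in the window of S100a6, Lgals3, Anxa1, Edn1 or Sfn.

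Members spread over the whole range between surfactant-rich and surfactant-poor cells. Sftpc ran from 8.90 through a median of 1531 to 2833 UMIs per 10000 in navitoclax and from 8.48 through 1869 to 2972 in vehicle. At least 1000 per 10000 were held by 59 navitoclax members (69.4%, 58.5% to 79.0%) and 81 vehicle members (76.4%, 67.2% to 84.1%), 100 to under 1000 by 9 and 10, and under 100 by 17 navitoclax members (20.0%, 12.1% to 30.1%) and 15 vehicle members (14.2%, 8.14% to 22.3%). The intervals of these shares overlap between the libraries. In the lowest range the median was 22.2 per 10000 in navitoclax and 14.3 in vehicle, close to the 18.6 and 16.0 of ciliated cells, which do not make surfactant protein C. Single members of this range reached 76.8 per 10000 in navitoclax and 96.9 in vehicle, above the upper quartiles of 27.5 and 21.2 in ciliated cells. The 1000 limit was chosen after the values were seen, and a range of a per-cell value is not a cell type.

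The surfactant-poor members had the highest levels of several transitional and p53 target genes outside the rule. Cdkn1a stood at 903, 778 and 344 CPM in navitoclax members with Sftpc under 100, 100 to under 1000 and at least 1000, and at 1537, 1019.5 and 409 CPM in the vehicle members. Bax followed the same order, with 441, 306 and 126 CPM in navitoclax and 468, 335 and 125 CPM in vehicle. Cryab, a small heat shock protein, was at 1534 CPM in the lowest range and 250.1 CPM in the highest in navitoclax, and at 1215 and 172 CPM in vehicle. The order of these 3 genes was the same in both libraries. Ccnd2, cyclin D2, was at 346 and 21.6 CPM in the lowest and highest range in navitoclax and at 854 and 41.6 CPM in vehicle. The summed level of S100a6 differed in order between the libraries. From the lowest to the highest range it stood at 4277, 4893 and 2965 CPM in navitoclax. In vehicle it stood at 8668, 5344 and 1245 CPM. The sum was thus lower in navitoclax in the lowest range and higher in the highest. In the lowest range in vehicle, however, a single member held 687 of the 1777 S100a6 UMIs. The S100a6 sums were not computed without such members, so the vehicle order and the difference in the lowest range may rest on them. Krt8 itself varied less, between 1148 and 1647 CPM over the 3 ranges in navitoclax and between 865 and 1361 CPM in vehicle.

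MHC class II genes were lowest in the members with the least Sftpc. H2-Ab1, a chain of the class II molecule, was at 229 and 873 CPM in the lowest and highest Sftpc range in navitoclax and 454 and 971 CPM in vehicle. The median log2 ratio of the class II list over AT2 cells was -2.04 in navitoclax and -0.72 in vehicle members of the lowest range, and 0.01 and 0.30 in those of the highest. Of p53 targets the medians were 1.54 and 1.74 in the lowest range and 0.66 and 0.67 in the highest, and of the laminin, integrin and adhesion list 1.87 and 1.34 in the lowest and 0.73 and 0.45 in the highest. The median of all genes was itself 0.58 and 0.51 in the lowest range and 0.13 and 0.06 in the highest. Ager did not climb as Sftpc declined: it was at 825 and 761 CPM in the lowest range, below the 1572 and 1532 CPM of the highest. Pdpn was at 90.7 and 87.8 CPM in them, against 15.98 and 9.91 CPM in the highest range. The AT1 identity list had medians over AT2 cells of 0.74 in navitoclax and 1.65 in vehicle members of the lowest range and of 0.68 and 0.69 in those of the highest. The depth of the surfactant-poor members was lower, with medians of 10489 UMIs in navitoclax and 12557 in vehicle, against 19883 and 16272 in the highest range, and the 4 single cells described above are among the 17 in navitoclax.

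**Figure D3:**
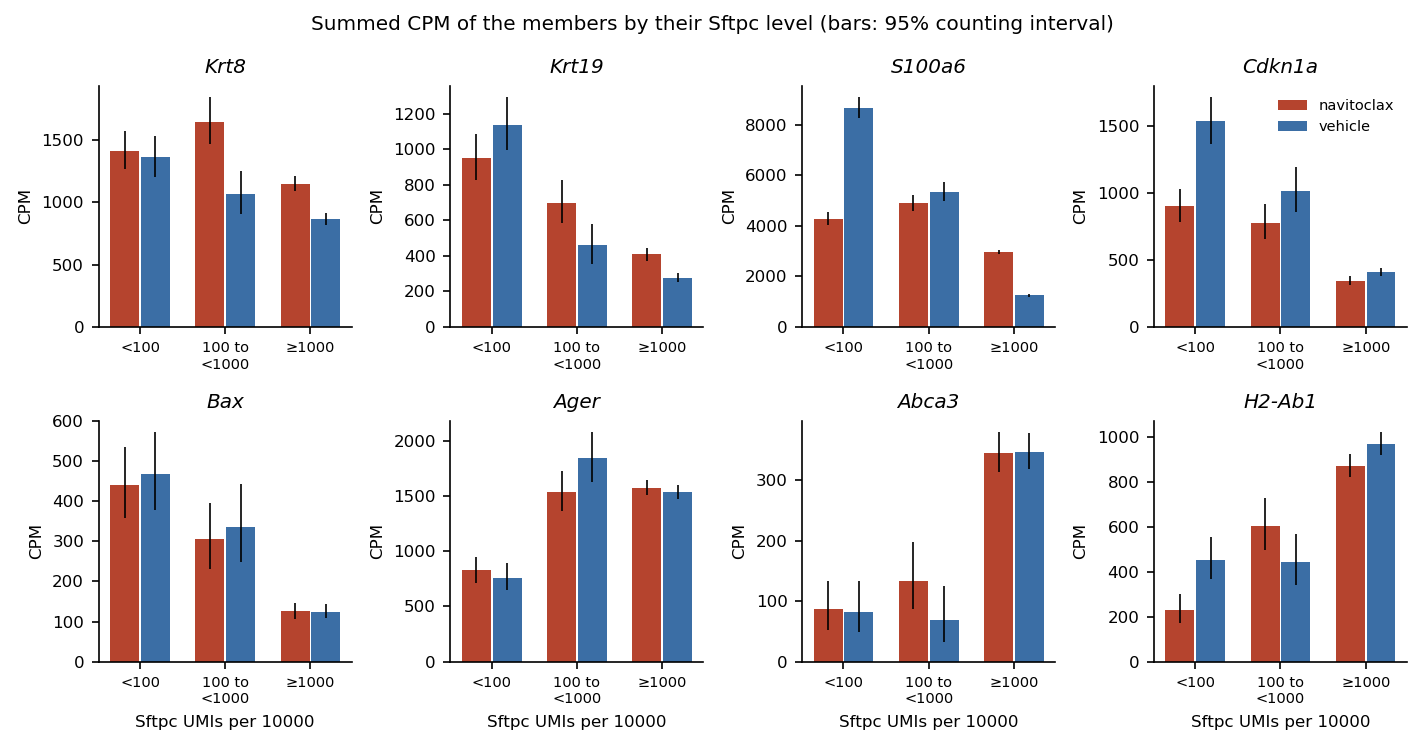
Bars give the summed CPM of 8 genes in members of 3 ranges of Sftpc, from low to high, in navitoclax (red) and vehicle (blue), with 95% Poisson intervals that cover counting error only. In both libraries Krt19, Cdkn1a and Bax are highest, and Ager lowest, in the members with Sftpc under 100 per 10000, and Abca3 and H2-Ab1 are highest in those with at least 1000.

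By the marker sum, the tier with at least 20 per 10000 had the highest Krt18, at 1947 CPM in navitoclax and 1602 CPM in vehicle, against 1087 and 913 CPM in the tier of 5 to under 10. S100a6 stood at 1612, 4393 and 5788 CPM from the low to the high tier in navitoclax and at 1087, 2711 and 5234 CPM in vehicle. Abca3 went the other way, at 396, 243 and 108 CPM in navitoclax and 373, 266 and 144 CPM in vehicle. In these sums the tiers with more of the rule genes thus had more of S100a6 and less of Abca3, in both libraries. The S100a6 value of the top tier in vehicle rests in part on single members at 253 and 339.7 UMIs per 10000. It was not computed without them. Cdkn1a did not follow the tiers in navitoclax, at 285, 886 and 379 CPM. After thinning every cell to 2000 UMIs, 30.95% of navitoclax and 29.2% of vehicle members had a Sprr1a UMI (47.1% and 40.6% before thinning), against 0.00% and 0.256% of thinned ciliated cells, and 22.6% and 9.43% had an Emp1 UMI (55.3% and 29.2% before), against 0.642% and 0.512%. Thinned AT1 cells had a Sprr1a UMI in 2.86% and 7.29% and an Emp1 UMI in 14.3% and 5.21%. Thinning left out 1 navitoclax member, 8 navitoclax and 1 vehicle ciliated cells and 1 navitoclax and 4 vehicle AT1 cells with fewer UMIs.

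Between navitoclax and vehicle members, Hspa1a and Hspa1b were higher in navitoclax, the keratin and transitional list had a median above that of all genes, and the AT2 identity list had a median below it. Of 4120 genes with at least 100 UMIs over both libraries, 196 (4.76%) were at least 1.5-fold higher in navitoclax and 61 (1.48%) were at least 1.5-fold lower, so that 76.3% of the genes past 1.5-fold were higher. This split depends on scaling: with scaling by the median of ratios in place of the total, 115 were higher and 101 lower, or 53.2%. Without the 4 cells that each hold most UMIs of a gene, 133 genes were higher and 64 lower, and among members with Sftpc under 100 per 10000, 56 of 621 counted genes were higher and 68 lower. The median of all genes with at least 20 UMIs was 0.10 on the log2 scale in members and -0.01 in AT2 comparison cells, and list medians are read against it. Counts within lists use the same minimum of 20 UMIs, at which 1154 of 8910 genes (13.0%) were at least 1.5-fold higher and 368 (4.13%) at least 1.5-fold lower. Of these 8910 genes, 5685 had a log2 ratio above 0 and 3225 one below 0, and counts of list genes above or below 0 are read against them.

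The 2 inducible Hsp70 genes were over 10-fold higher in navitoclax members as a whole, and less so in those with little Sftpc. Hspa1a reached 783 CPM (742 to 827) in navitoclax members and 60.05 CPM (49.4 to 72.3) in vehicle members, a ratio of 13.05 (10.8 to 15.97). Per cell it ran from 0 through a median of 6.09 to 32.7 UMIs per 10000 in navitoclax and from 0 through 0 to 14.7 in vehicle, and 71 of 85 and 41 of 106 members had a UMI of it. In members with Sftpc under 100 per 10000 it stood at 255 CPM in navitoclax and 82.9 CPM in vehicle, a log2 ratio of 1.56, against 3.60 in all members. Hspa1b was at 529.5 and 52.01 CPM, a ratio of 10.2 (8.25 to 12.7), with a log2 ratio of 1.20 in the members with little Sftpc and 3.23 in all. Both were also higher in AT2 comparison cells, by 30.2 and 33.6 times, and a thinned Hspa1a UMI was found in 16.3% of navitoclax and 2.30% of vehicle ciliated cells, so that the difference was also present in these other epithelial cells of the 2 libraries. Hspa1a and Hspa1b are near-identical copies by general knowledge, so how counting divides reads between them is uncertain.

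Of the 20 cytosolic heat shock genes, 19 were above and 1 below 0 and 6 were at least 1.5-fold higher, against 13.0% of all genes at this minimum, with a median of 0.36 in members and 0.19 in AT2 cells. Hspb1, the small heat shock protein HSP27, stood at 586 CPM in navitoclax members and 357 CPM in vehicle members (1.64-fold), and Hsph1, a partner of Hsp70, at 26.95 and 8.58 CPM on 45 and 16 UMIs. The immediate-early and dissociation list had a median of -0.03 in members and -0.11 in AT2 cells, with 0 of 18 genes at least 1.5-fold higher and 1 lower in members. The promoters of Hspa1a and Hspa1b are shown for the heat shock element, searched as GAANNTTC or TTCNNGAA on both strands. Either form was in 11 of 16 heat shock genes with a window and in 15.1% of all windows. Both genes held GAAGATTC 104 bases before the start, in capitals, and the windows are identical at 296 of 300 positions.
Hspa1a, chr17:34972107-34972406, minus strand: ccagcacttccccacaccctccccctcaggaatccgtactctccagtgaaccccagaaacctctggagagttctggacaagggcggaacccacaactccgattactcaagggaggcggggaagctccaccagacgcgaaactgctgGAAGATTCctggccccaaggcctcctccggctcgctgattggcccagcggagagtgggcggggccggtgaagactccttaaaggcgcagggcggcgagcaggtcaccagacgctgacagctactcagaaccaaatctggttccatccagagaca
Hspa1b, chr17:34959189-34959488, minus strand: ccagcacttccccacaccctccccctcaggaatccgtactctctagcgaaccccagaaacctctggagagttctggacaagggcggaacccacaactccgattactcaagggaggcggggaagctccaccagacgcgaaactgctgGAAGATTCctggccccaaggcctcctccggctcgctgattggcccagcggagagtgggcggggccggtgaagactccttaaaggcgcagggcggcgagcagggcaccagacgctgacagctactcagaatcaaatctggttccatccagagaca

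Several genes that mark members over AT2 cells were higher still in navitoclax members. Emp1 stood at 180.3 CPM (160.5 to 202) in navitoclax and 55.2 CPM (45.1 to 66.97) in vehicle, a ratio of 3.26 (2.60 to 4.12), and in AT2 cells the ratio was 2.78. Plaur was at 52.7 and 13.9 CPM (3.78-fold, 2.42 to 6.10), with a UMI in 29 navitoclax members and 17 vehicle members. Edn1 was at 89.8 CPM in navitoclax and 17.7 CPM in vehicle (5.08-fold), or 3.86-fold without the highest cell in each library. F3 (2.41-fold), Cyr61 (2.29-fold), Lgals3 (1.78-fold) and the histone gene Hist1h4h (2.80-fold) were higher as well. Fgfbp1, which releases FGFs from the matrix, had a ratio of 4.36, or 2.20 without its highest cells, and that of Cxcl1 was 16.9, or 4.27 without them. The remaining 3 of the 12 highest genes, Crct1, Xirp2 and Resp18, come from the single cells above, with 0 UMIs in vehicle.

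Krt8 and the rule genes are given as description. Krt8, which the rule did not use, was 1.33-fold (1.24 to 1.41) and Krt19 1.34-fold (1.21 to 1.48) the vehicle level in navitoclax members, short of 1.5-fold, while Sprr1a was 1.70-fold higher (1009 CPM in navitoclax, 593 CPM in vehicle) and Sfn was 1.24-fold lower (569 and 704 CPM). Cldn4 was 2.90-fold, but 1.11-fold without the highest cell in each library, so its ratio rests on 1 cell. The keratin and transitional list had a median of 0.54 in members and 0.24 in AT2 cells, with 22 of 24 genes above 0, 12 at least 1.5-fold higher, against 13.0% of all genes, and 0 at least 1.5-fold lower. The median was 0.12 among members with Sftpc under 100, and 0.29 when Sfn was left out of the marker sum. Also on the list, Ndrg1 had a ratio of 3.98 that was 1.75 without its top cells, and Dmkn, on 52 and 12 UMIs, one of 4.84.

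Lists of structural genes also had positive medians. YAP targets had a median of 0.49, with 6 of 13 genes at least 1.5-fold higher, against 13.0% of all genes, and 0 lower, and the laminin, integrin and adhesion list one of 0.41, with 17 of 18 genes above 0 and 5 past 1.5-fold. Actin cytoskeleton genes had a median of 0.31, and the filamin Flna (1.87-fold), the actinin Actn1 (2.02-fold) and the tropomyosin Tpm2 (2.91-fold) were the 3 of 19 past 1.5-fold, a share near the 13.0% of all genes, so that the count says nothing particular of the list. AT1 identity genes had a median of 0.49, or 0.28 without the top cells and 0.21 among those with at least 100 UMIs, with Cav1 at 65.9 CPM in navitoclax and 27.9 CPM in vehicle and the semaphorin Sema3e at 31.7 and 9.65 CPM, but Ager at 1465 and 1472 CPM. In members with Sftpc under 100 the AT1 median was -0.11. The same lists had medians of 0.04 to 0.19 in AT2 cells.

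Of AT2 identity genes, 18 of 20 had a log2 ratio below 0 and the median was -0.25, against -0.01 in AT2 cells, but only 1, Cebpa, was past 1.5-fold, where 4.13% of all genes were lower by that much. Cebpa, a transcription factor of AT2 maturation, was at 92.8 CPM (78.8 to 109) in navitoclax and 183 CPM (164 to 204) in vehicle, 1.97-fold lower. Sftpa1, a surfactant collectin, stood at 18622 and 27102 CPM (1.46-fold lower), and Lpcat1, which makes surfactant phospholipid, was 1.45-fold lower. Among members with Sftpc of at least 1000 the median was -0.12. All 6 MHC class II genes were below 0, with a median of -0.27 in members and 0.17 in AT2 cells, but only H2-DMa passed 1.5-fold (1.53-fold lower), and H2-Aa stood at 822 CPM in navitoclax and 1123 CPM in vehicle.

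**Figure D4:**
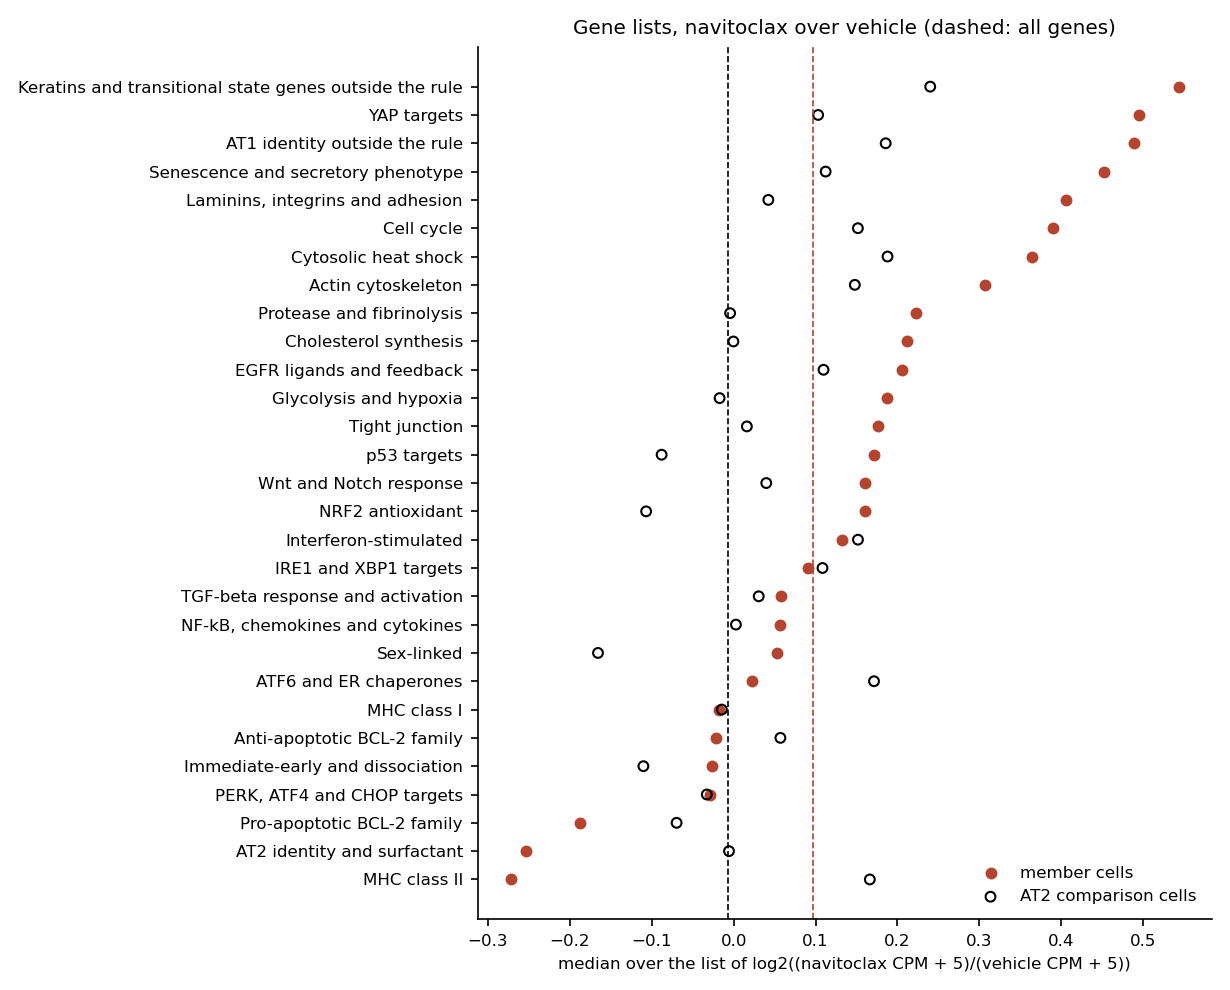
Filled points give the median log2 ratio of navitoclax over vehicle (5 CPM added to both) of each gene list in members, open points the same in AT2 comparison cells, and dashed lines the median of all genes. Keratin, YAP, AT1 and senescence lists lie furthest to the right in members and the AT2 and MHC class II lists furthest to the left.

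The genes furthest below the vehicle level in navitoclax members follow. Gdf15 was at 75.5 CPM (62.9 to 89.9) in navitoclax members and 161 CPM (144 to 181) in vehicle members, 2.14-fold lower, and 2.59-fold lower in AT2 cells. Atf3, a stress-induced transcription factor, was at 308 and 604 CPM (1.96-fold lower), with a ratio of 0.840 in AT2 cells. Hes1, a Notch effector, was 1.90-fold lower in members and 1.53-fold lower in AT2 cells. Osgin1 (2.20-fold lower), an NRF2 target that restrains growth, and the clock repressor Nr1d1 (2.21-fold) were also lower, as was Erdr1 (3.50-fold), which was 3.32-fold lower in AT2 cells. Cox6a2 (2.19-fold lower), Chia1 (1.90-fold), a chitinase of AT2 cells, Bex2 (3.005-fold) and Fam71a (2.15-fold) had AT2 ratios of 0.794, 1.05, 0.850 and 0.868. Spink5, a serine protease inhibitor, was 5.48-fold lower, but 81 of its 147 vehicle UMIs were in 1 cell, and without the top cells it was 3.30-fold lower.

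**Figure D5:**
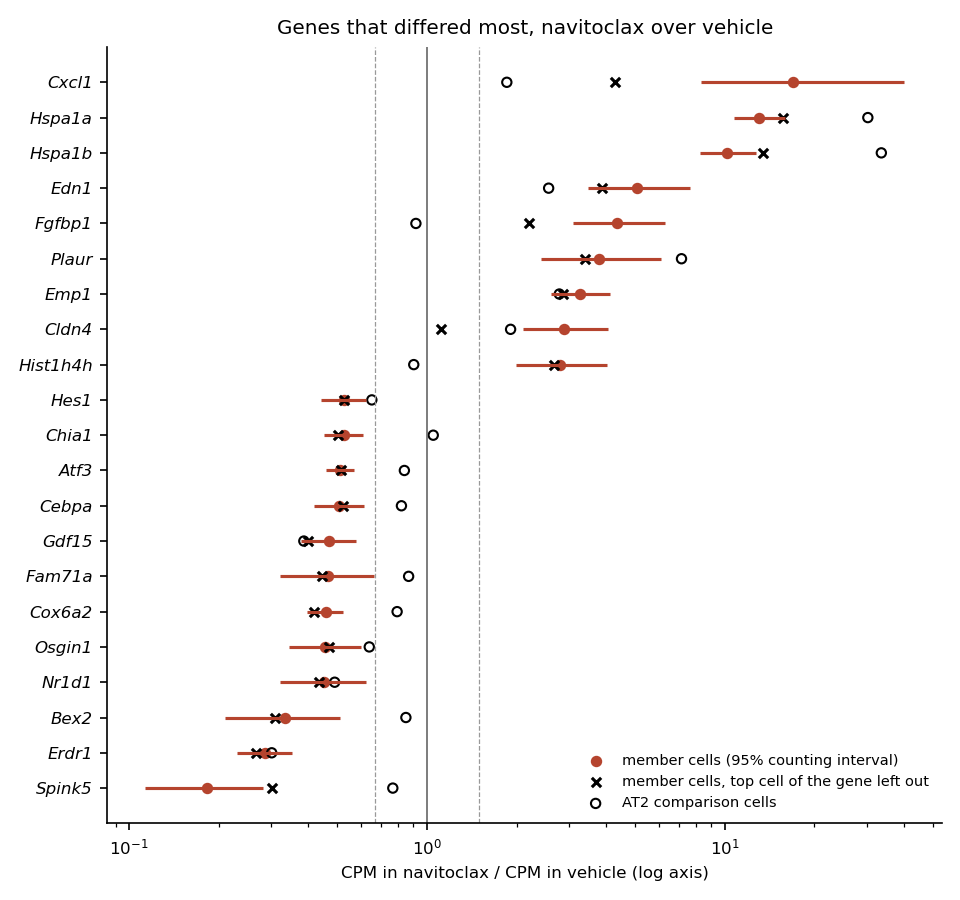
Points give the ratio of navitoclax over vehicle CPM in members on a log axis with 95% counting intervals, for the genes ranked furthest from 1, except Crct1, Xirp2 and Resp18, which had 0 UMIs in vehicle. Crosses leave out the highest cell of each library and open points are AT2 comparison cells. For Cxcl1, Fgfbp1 and Cldn4 the cross lies well below the point, and for Hspa1a and Hspa1b the AT2 ratio exceeds that in members.

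The genes of the BCL-2 proteins that navitoclax binds are given first, and then those of IRE1α, the ER stress sensor named in the study's title, and its targets. Bcl2l1, which encodes BCL-XL, was at 64.1 CPM in navitoclax members and 47.7 CPM in vehicle members (1.34-fold, 1.004 to 1.80), and its log2 ratio ran from -0.37 in thinned cells to 1.17 in members with Sftpc under 100. Bcl2l2, which encodes BCL-W, was at 20.4 and 21.98 CPM, a ratio of 0.926 with an interval of 0.570 to 1.496, and Mcl1, which navitoclax does not bind well, at 295 and 286 CPM. Bcl2 itself had 8 and 7 UMIs, too few to compare. Of the pro-apoptotic genes, Bax was at 189.9 and 179 CPM and Bak1 at 11.4 and 11.8 CPM, while Bbc3, the BH3-only protein PUMA, was at 25.2 CPM in navitoclax and 50.4 CPM in vehicle, 2.003-fold lower (1.38 to 2.96) and the only 1 of 7 past 1.5-fold. Ern1, which encodes the ER stress sensor IRE1α, had 17 UMIs in navitoclax and 19 in vehicle, a ratio of 0.9996 with an interval of 0.488 to 2.03, and Xbp1 one of 1.07 (0.863 to 1.32). The IRE1 and XBP1 list had a median of 0.09 with 0 of 17 genes past 1.5-fold, the ATF6 list one of 0.02 with 1 of 14 past it, and the PERK list one of -0.03 with 1 of 18 higher and 3 lower. The median of all genes was 0.10, and the ATF6 median was -0.05 with scaling by the median of ratios. At the minimum of the lists, 13.0% of all genes were at least 1.5-fold higher and 4.13% at least 1.5-fold lower.

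Of p53 targets, 3 of 19 were at least 1.5-fold higher, near the 13.0% of all genes, and 2 were lower, against 4.13%, with a median of 0.17, and the higher Ccng1, cyclin G1, was 1.61-fold, or 1.43-fold without the top cells. The senescence list had a median of 0.45, or 0.21 without the top cells and -0.55 in members with Sftpc under 100, and its 9 genes above the minimum went both ways, with Plaur and Cxcl1 higher and Gdf15 lower. Cell cycle genes had a median of 0.39, or 0.16 without the top cells: Birc5 and Ube2c had 51 and 50 UMIs in navitoclax members, of which 47 and 46 were in 1 cell each. The NRF2, TGFβ, EGFR, interferon, NF-κB, glycolysis, cholesterol, tight junction, protease, Wnt and Notch and MHC class I lists had medians between -0.02 and 0.22, and the 4 sex-linked genes one of 0.05.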

How the data were processed

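The deposited files hold UMI counts per gene and cell barcode, 1 matrix per library, with 27998 genes, made by the authors with Cell Ranger 4.0.0, as the file headers record, on the genome build mm10, as the submitters' processing notes record. How barcodes were called as cells, and whether doublets were removed, was not found in the sources used. Single-cell RNA of 1 navitoclax and 1 vehicle library was read as raw counts with Python 3.11.15, numpy 2.4.6, pandas 2.3.3, scipy 1.17.1 and scanpy 1.11.5 (Scrublet, expected doublet rate 6%), and figures were drawn with matplotlib 3.10.9. Barcodes with under 500 genes or over 15% mitochondrial UMIs were dropped, and members were chosen by the rule given above.

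Counts of the member cells were summed per library and divided by the total of the same cells (CPM). Intervals of a level are exact Poisson intervals, those of a ratio are conditional exact intervals, those of a share are Clopper-Pearson and that of a difference of shares is Newcombe's, all at 95%. They cover counting error only, and cells of 1 library are not replicates. Log2 ratios have 5 CPM added to each level, so they understate the differences of low genes. Fold counts needed at least 100 UMIs over both libraries and list medians at least 20 UMIs per gene. The fold counts were checked on simulated Poisson counts with known folds. These counts hold no variation between cells, so the check does not cover genes whose UMIs come mostly from 1 cell. Genes named between treatments were the 12 highest and 12 lowest by the bound of the ratio interval nearest to 1, with at least 50 CPM in the higher library, immunoglobulin, ribosomal, mitochondrial and unnamed genes left out, up to 4 genes of each list, the rule genes, Krt8, and genes of the BCL-2 family and IRE1α. Those over AT2 cells were the 12 highest and 12 lowest by the less extreme library. Jchain, the genes of single dominating cells and the examples from lists beyond these were chosen after their values were seen. The members and lists were chosen with earlier results of these data known. The Sftpc range under 10 set out at first held 1 navitoclax and 4 vehicle members and was merged into that under 100, and the limit at 1000 was added after the values were seen. Alternatives changed the thresholds, the marker genes, the scaling, the depth, the pseudocount and the cells kept. No column of per-sample values was left unused.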

Additional observations from a re-analysis of the deposited data

Results flagged for a closer look

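In the navitoclax library 5 epithelial barcodes over the limit of 15% mitochondrial UMIs met every other criterion for members, of 241 epithelial barcodes over that limit, and in the vehicle library 3 of 175 did. They stand outside every comparison and were picked out because marker signal appeared in barcodes that the analysis left out. Their median mitochondrial share was 23.3% in navitoclax and 17.4% in vehicle, and Krt8 stood at 116 CPM in navitoclax and 439 CPM in vehicle, below the level in members of the same library.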

How the results depend on the processing

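No paired analysis was possible because each group is 1 library, and no library could be left out. Under the 11 alternatives the difference in the share of members ran from -0.61 to 0.14 percentage points, above 0 only with Sfn left out of the marker sum. All of these lay inside the main interval of -1.34 to 0.42. Of the alternatives, only that with alveolar cells as the denominator had an interval of its own, -1.55 to 0.61. The 764 genes past 2-fold over AT2 cells became 455 with a marker threshold of 3 per 10000 and 1212 with Sfn left out. The 257 genes past 1.5-fold between navitoclax and vehicle members became 404 with Krt19 left out of the sum, 36 in cells thinned to 2000 UMIs, 124 in members with Sftpc under 100 per 10000, 1522 with a minimum of 20 UMIs, 5545 with 1 UMI and 112 with 200 UMIs. The minimum sets how many genes are counted; for the choice of marker genes and of cells the cause was not tested. Of 572 list medians under an alternative, 541 moved by less than their spread and 31 by more. Of 1064 values of the 54 genes named between treatments, 894 stayed within their counting interval, 160 moved by more, and 10 changed sign in a gene past 1.5-fold. Counted over all 54 genes, past 1.5-fold or not, 47 values changed sign, in 16 genes, most often Ern1 and Xbp1 (8 each) and Bax and Bcl2l2 (6 each). Of the 10, those in members with Sftpc under 100 were Bex2 (0.073, log2), Cav1 (-0.65), Cebpa (0.19), Osgin1 (0.21), Tpm2 (-0.88) and Ube2c (-0.11). Without the 4 dominating cells Cldn4 was at -0.26, and in members with Sftpc of at least 1000 Birc5 was at -0.23, Cldn4 at -0.10 and Ube2c at -0.33. The last 2 of these choices of cells were made after the data were seen. Medians of the keratin, YAP, laminin and heat shock lists stayed above 0 and those of the AT2 and MHC class II lists below 0 under all 20 alternatives. With 85 and 106 members, a gene under 20 UMIs cannot be compared.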

Other observations

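Over AT2 cells, the lists not described above were read for genes at least 2-fold higher in members of both libraries. Of 16 counted interferon-stimulated genes, 6 were higher, Irf7, Ifitm3, Gbp2, Usp18, Zbp1 and Cxcl10, and 0 were lower. Of 16 counted genes of the NF-κB, chemokine and cytokine list, Nfkbia, Cxcl2, Cxcl16 and Relb were higher and Cxcl5, Il33 and Lcn2 were lower, so that this list went both ways. Nfkbia, the inhibitor that holds NF-κB in the cytoplasm, was 4.03-fold higher in navitoclax members and 3.91-fold higher in vehicle members. Of 15 counted EGFR ligands and feedback genes, Areg, Hbegf, Dusp5 and Phlda1 were higher and 0 were lower. Higher in both libraries were also 3 of 20 heat shock genes, 3 of 16 NRF2 genes, 3 of 13 tight junction genes, 4 of 20 actin genes, 3 of 18 glycolysis genes, 3 of 13 protease genes, 2 of 21 cell cycle genes, 2 of 18 immediate-early genes and 1 of 11 Wnt and Notch genes. The 3 tight junction genes were Cldn4, Cldn23 and Ocln, and Cldn4 is a rule gene, so its higher level follows from the choice of members. Of the MHC class I (11), cholesterol (20) and sex-linked (4) lists 0 were higher. These counts stand beside 4.53% of all counted genes higher and 2.38% lower, and as contrasts of the chosen cells with AT2 cells they carry no test.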
